A study of Mus musculus with 12 samples.

Results

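SIX-family genes encode homeodomain transcription factors related to sine oculis of the fly, and the EYA genes encode their co-activators, which are also protein phosphatases. EYA proteins do not bind DNA by themselves: a SIX-family protein recruits them to target genes, and DACH proteins act with the complex. The network is known for the development of eye, kidney, inner ear and skeletal muscle, and the mouse genes Six2 and Eya1 are classic kidney progenitor genes. Of the network's genes, 9 were examined here, namely Six2, Six3, Six4, Six5, Six6, Eya1, Eya2, Eya3 and Eya4, out of 21938 protein-coding genes on chromosomes 1 to 19, X and Y.

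MOF (KAT8) is a lysine acetyltransferase that places acetyl groups on histone H4 at lysine-16. The study mapped it by ChIP-seq, the sequencing of DNA recovered with a MOF antibody from fixed chromatin, in visceral white adipose tissue of 8-week-old mice labelled C57BL/6 (by the methods, backcrossed to C57BL/6J) on a standard diet, and asked which genes MOF occupies in Mof+/+ and in Mof+/- animals. Each genotype has 2 MOF, 2 histone H3 and 2 input libraries by the labels, 12 in all. Mof+/- mice are heterozygous in every tissue, and whole tissue was used, so cells other than adipocytes could contribute chromatin. The values analysed were 1 list of MOF peaks per genotype. Whether the replicates were pooled in a list is not stated. No spread between replicates could therefore be computed, and none of the differences below was tested.

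A peak was assigned to a gene when it touched the gene body or lay within 3 kb of any of its annotated start sites. The 9 genes were chosen by name with the peaks of both lists already known, and the rule used the positions, summits and fold enrichments of those peaks. Peak counts and enrichments of the genes are therefore a description. Fold enrichment is the ratio, at the summit, of ChIP fragments to the background that the caller took from input, with 1 added to each.

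In Mof+/+ tissue, 5 of the 9 genes had a MOF peak: Six5, Six6, Eya1, Eya2 and Eya3. The other 4, Six2, Six3, Six4 and Eya4, had none. Over all protein-coding genes, 44.5% had such a peak (9773 genes), so that the count of 5 is close to the genome-wide share. Within 1 kb of a start site, 4 of the 9 had a peak, Six6 dropping out, beside 41% of all coding genes. In Mof+/- tissue, 0 of the 9 had a peak, where 1.89% of coding genes (415 genes) had one. At that background share, 0 of 9 says nothing particular about these genes. The Mof+/+ list placed 9 peaks on the 5 genes, covering 6824 bp, and 0 of the 9 overlapped a Mof+/- peak, beside 2.44% of all Mof+/+ peaks. Widening the window to 50 kb, a choice made after the count of 0 was seen, still gave 0 Mof+/- peaks at the 9 genes. The share of all coding genes with a Mof+/- peak at 50 kb was not computed.

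The backgrounds of the lists differed, and depth itself was not measured here. The lowest input background at a summit, which moves with the depth of the libraries, was 3.52 fragments for Mof+/+ and 2.26 for Mof+/-, and the second divided by the first is 0.642. There were 19773 listed Mof+/+ peaks and 731 Mof+/- peaks, and the weakest listed −log10 p was 3.25 and 4.72, respectively. An absent peak is thus no measurement of absent MOF, least of all in the Mof+/- list.

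**Figure D1:**
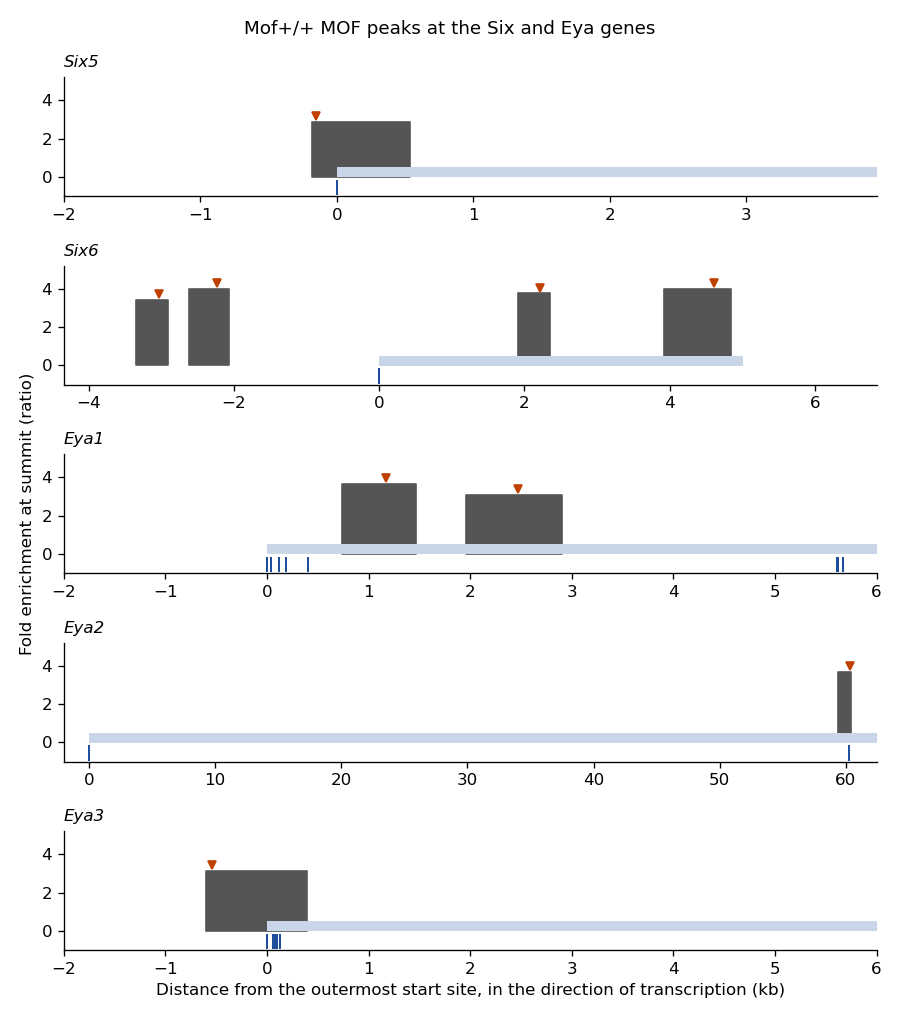
Mof+/+ MOF peaks at the 5 genes with a peak. The x axis is the distance from the outermost start site in the direction of transcription (kb) and the y axis the fold enrichment at the summit (ratio). Grey boxes are peaks, orange triangles are summits, pale blue bars are gene bodies and dark blue ticks are annotated start sites. The boxes of Six5 and Eya3 span the outermost start, the 4 boxes of Six6 stand 1905 bp or more from it, and the single box of Eya2 lies about 60 kb inside the gene.

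Among the transcription factors, Six5 had 1 peak, with the lowest fold enrichment listed among the 9, although its fragment interval overlaps those of the other 8. SIX5 is the member whose gene lies beside Dmpk, the kinase gene whose repeat expansion causes myotonic dystrophy. The gene (ENSMUSG00000040841.5, plus strand of chromosome 7, 19094594 to 19098549, GRCm38) has a single annotated start. Its peak, chr7:19094411-19095129, was 719 bp wide and held that start, and the summit lay 154 bp upstream. The fold enrichment was 2.88 and the −log10 p 4.09. These values correspond to 12 fragments at the summit (exact Poisson 95% interval 6.20 to 20.96, counting error only). Of all Mof+/+ peaks, 17.9% had a lower fold enrichment. The same peak was also within the window of Dmpk, so it cannot be given to Six5 alone. The 120 bases around the summit, chr7:19094380-19094499 on the plus strand, are shown because they sit in a CpG-rich start, with CG in capitals here and in all sequences that follow.
Six5 summit: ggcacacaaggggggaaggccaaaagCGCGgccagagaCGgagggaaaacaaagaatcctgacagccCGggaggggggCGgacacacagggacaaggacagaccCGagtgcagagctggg

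This stretch held 6 CpG sites, and the 501 bp around the summit held 38, beside a median of 12 over all Mof+/+ summits. The next Mof+/+ peak around Six5 lay 9922 bp from the start, outside the window, with the same fold enrichment of 2.88.

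Six6, a factor of the retina, hypothalamus and pituitary, had the most peaks, 4 of the 9, and none of them at its start. The gene (ENSMUSG00000021099.6, plus strand of chromosome 12, 72939892 to 72944899) has 1 annotated start site with 62 CpG sites in the surrounding 1001 bp, more than the median of 50 over coding genes. Upstream of it were chr12:72936549-72936987 (fold enrichment 3.40, 15 fragments, interval 8.40 to 24.7) and chr12:72937267-72937818 (fold enrichment 3.98, 17 fragments, 9.90 to 27.2). Their nearest edges were 2905 and 2074 bp from the start. Inside the gene were chr12:72941797-72942240 (fold enrichment 3.76, 16 fragments, 9.15 to 26.0) and chr12:72943812-72944741 (fold enrichment 3.98, 17 fragments, 9.90 to 27.2). Both of their summits fell in annotated UTR, and the last peak, 930 bp wide, was the widest of the 4. The intervals of the 4 peaks overlap throughout, so their order is not resolved. The first 3 were also within the window of 4930447C04Rik, a coding gene that overlaps this locus. The peak at 2905 bp is just inside the 3 kb window by its edge only, with its summit 3026 bp upstream of the start.

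The summit of that first peak is shown as an example of a summit away from a CpG-rich start, chr12:72936806-72936925, plus strand.
Six6 summit, first peak: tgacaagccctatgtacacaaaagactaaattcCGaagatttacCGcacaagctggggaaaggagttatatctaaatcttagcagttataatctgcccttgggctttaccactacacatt

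It held 2 CpG sites and 40% G+C, and the 501 bp around it held 8 CpG sites. The 501 bp around the other summits of Six6 held 15, 15 and 5.

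For Six2, Six3 and Six4 the Mof+/+ list named no peak in the window. SIX2 keeps nephron progenitors undifferentiated, SIX3 patterns the forebrain and eye, and SIX4 acts in muscle precursors. Six2 (ENSMUSG00000024134.11, minus strand of chromosome 17, 85684277 to 85688274) was the member just outside: a peak at chr17:85691745-85692256 lay 3471 bp upstream of its start, with a fold enrichment of 3.27 and 15 fragments. A window of 10 kb would add Six2 and bring the count to 6 of 9. The share of all coding genes at 10 kb was not computed, so that count has no background beside it. Six2 also had the most CpG-rich start of the 9, with 121 CpG sites in 1001 bp, a value higher than at 96.0% of coding genes. When coding genes were ranked by CpG count and cut into 10 groups, 78.2% of the 2275 genes in the group of Six2 had a Mof+/+ peak in their window. Of the 2929 coding genes within a factor of 1.5 of its length, 34.7% had one. The stretch before its outer start is shown for that reason, chr17:85688275-85688394, written on the plus strand although the gene runs on the minus strand.
Six2 start without a peak: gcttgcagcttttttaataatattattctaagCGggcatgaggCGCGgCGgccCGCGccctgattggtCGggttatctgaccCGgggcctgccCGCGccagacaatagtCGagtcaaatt

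It held 11 CpG sites. Six3 (ENSMUSG00000038805.10, plus strand of chromosome 17, 85613608 to 85629302) lies 54974 bp from Six2 and has 3 annotated starts with 35 to 62 CpG sites in 1001 bp. Six4 (ENSMUSG00000034460.9, minus strand of chromosome 12, 73099609 to 73113456) has 2 starts, each with 47 CpG sites, and lies 154709 bp from Six6. No Mof+/+ peak lay within 10 kb of either gene.

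Among the co-activators, 3 of 4 had a Mof+/+ peak, beside 2 of the 5 SIX-family genes examined and 44.5% of all coding genes. Among coding genes of like length, by the factor used for Six2, the share was 52.8% for Eya1 and 49.8% for Eya2. It was 57.7% for Eya3 and 43.8% for Eya4. The split into co-activators and transcription factors was made with the peaks known and was not tested. Eya1, whose loss causes branchio-oto-renal defects, had 2 peaks next to each other at its 5' end. The gene (ENSMUSG00000025932.14, minus strand of chromosome 1, 14168954 to 14310235) has 9 annotated starts, 5 of them clustered at the outer end. The peak nearer the cluster, chr1:14308765-14309501, had a fold enrichment of 3.67 and 18 fragments (10.7 to 28.4). The one farther in, chr1:14307334-14308274, had a fold enrichment of 3.10 and 13 fragments (6.92 to 22.2). Both summits were intronic, and no annotated start lay inside either peak. Their edges were 335 and 1562 bp from the nearest start. The summit of the nearer one, labelled by coordinate order, is shown beside the start cluster it misses, chr1:14309005-14309124, plus strand.
Eya1 summit, second peak: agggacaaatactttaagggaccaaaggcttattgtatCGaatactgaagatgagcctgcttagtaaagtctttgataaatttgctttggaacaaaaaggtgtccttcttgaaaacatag

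A single CpG site stands in this stretch, with 35.8% G+C. The start cluster, on the other side of the 335 bp gap, held 49 to 51 CpG sites per 1001 bp, close to the median of 50 over coding genes.

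Eya2 is the member where the peak and the CpG-rich start were farthest apart. EYA2 acts with SIX-family proteins in muscle and sensory precursors. The gene (ENSMUSG00000017897.18, plus strand of chromosome 2, 165595032 to 165771727) has 6 annotated starts. Its only peak, chr2:165654409-165655473, was 1065 bp wide, the widest of the 9, with a fold enrichment of 3.67 and 18 fragments (10.7 to 28.4). It covered the internal starts at 165655298 and 165655318, which have 18 and 17 CpG sites in 1001 bp, and the summit lay 60343 bp into the gene, in a UTR of the shorter transcripts. The outermost start, with 84 CpG sites, had no peak within 1 kb. The 120 bases before the outer start, chr2:165594912-165595031, and before the internal one, chr2:165655178-165655297, both on the plus strand, show the contrast.
Eya2 outer start without a peak: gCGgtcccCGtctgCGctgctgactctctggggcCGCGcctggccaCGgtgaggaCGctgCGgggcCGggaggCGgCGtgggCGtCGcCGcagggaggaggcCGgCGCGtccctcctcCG
Eya2 internal start within the peak: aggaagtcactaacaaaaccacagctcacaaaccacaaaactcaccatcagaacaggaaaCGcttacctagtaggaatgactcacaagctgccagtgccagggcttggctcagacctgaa

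The outer stretch held 18 CpG sites and 80% G+C, and the internal one held 1 CpG site and 48.3% G+C.

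Eya3, which encodes another phosphatase and co-activator of the family, had a peak over its main start region. The gene (ENSMUSG00000028886.15, plus strand of chromosome 4, 132638987 to 132724765) has 11 annotated starts, of which 8 lay inside chr4:132638387-132639383. This peak was 997 bp wide, with a fold enrichment of 3.12 and 16 fragments (9.15 to 26.0). Its summit was not at the starts: it lay 539 bp upstream of the outermost one, near the edge of the peak. The 120 bases before the outermost start, chr4:132638867-132638986 on the plus strand, are shown as a CpG-rich start inside a peak.
Eya3 start within the peak: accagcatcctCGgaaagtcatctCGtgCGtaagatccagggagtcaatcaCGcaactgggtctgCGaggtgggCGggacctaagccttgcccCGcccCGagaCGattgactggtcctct

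This stretch held 9 CpG sites and 60% G+C.

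Eya4, known from deafness and heart disease, had no Mof+/+ peak in its body or within 10 kb. It is the longest of the 9 genes at 247824 bp (ENSMUSG00000010461.15, minus strand of chromosome 10, 23102963 to 23350786) and its richest start has 88 CpG sites in 1001 bp. Of the 870 coding genes within a factor of 1.5 of its length, 43.8% had a Mof+/+ peak. Of the 2123 genes in its CpG group, which also holds Six5 and Eya2, 73.6% had one.

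The 9 peaks were of ordinary strength. Their fold enrichments ran from 2.88 to 3.98 with a median of 3.67, against 3.40 over all Mof+/+ peaks, and 5 of 9 were above the overall median. Their widths ran from 439 to 1065 bp with a median of 737 bp, against 609 bp. The 2 Six6 peaks with a fold enrichment of 3.98 shared their exact fold enrichment and p with other peaks, 744 in all, because whole fragments over the same background give the same values. At 5 of the 9 summits the input background was the lowest in the list, as it was for 49.9% of all Mof+/+ peaks that could be solved.

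**Figure D2:**
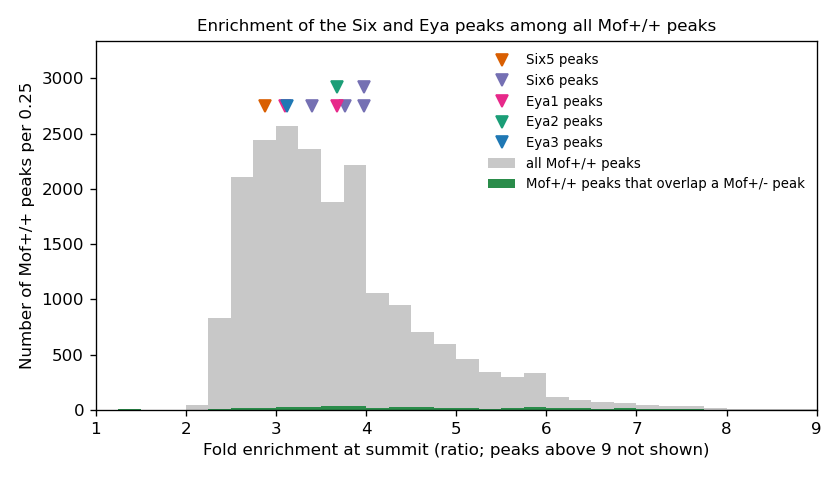
Fold enrichment at the summit of all Mof+/+ peaks (grey, number of peaks per bin) and of those that overlap a Mof+/- peak (green). Triangles mark the 9 peaks of Six5, Six6, Eya1, Eya2 and Eya3, coloured by gene, at heights without meaning. All 9 sit between 2.88 and 3.98, inside the main body of the distribution.

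The absence of these peaks from the Mof+/- list was read against the difference in background. Of the 9, 7 were past the weakest p-value in the Mof+/- list, as were 68.6% of all Mof+/+ peaks; the exceptions were the Six5 peak and the Eya1 peak farther into the gene. When the fragments and the background of each peak were multiplied by 0.642, the 9 peaks were left with 7.71 to 11.6 fragments. To pass the weakest Mof+/- p-value at that scaled background, 11 or 12 were needed. The scaled value reached that number at 0 of the 9 peaks, beside 30.1% of all solved Mof+/+ peaks, but came to 10.9 against 11 at 2 Six6 peaks and to 11.6 against 12 at Eya2 and the nearer Eya1 peak. The scaled counting interval held the needed number at 9 of the 9 peaks, a count not made over all Mof+/+ peaks. Whether any of the 9 would have been listed at that scaling is thus not resolved. As the fold enrichments were known when the genes were chosen, this is a description. Among Mof+/+ peaks with a −log10 p in the range of the 9, from 4.09 to 7.41, 1.1% overlapped a Mof+/- peak (124 of 11281). Unequal depth and lower MOF occupancy cannot be told apart at these genes from the lists.

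Base composition was then set out for the summits and for the gene starts. The 501 bp windows around the 9 summits held a median of 8 CpG sites, against 12 over all Mof+/+ summits, and the highest was 38 at Six5. The G+C content was 35.3 to 43.7% at 6 of the 9 summits, where the median over all summits was 53.1%. Of the 9 peaks, 3 held an annotated start site, those of Six5, Eya2 and Eya3. The same share over all Mof+/+ peaks was not computed. At the genes' richest starts, the CpG count ran from 47 at Six4 to 121 at Six2. The 4 genes without a peak had 121, 62, 47 and 88, and the 5 with a peak had 100, 62, 51, 84 and 70, so the groups overlap across most of the range.

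**Figure D3:**
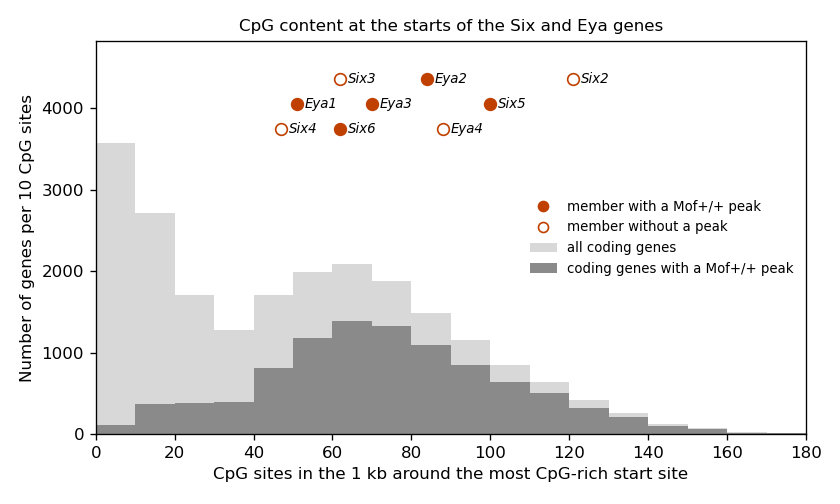
CpG sites in a window of 1001 bp at the most CpG-rich start site of each protein-coding gene (pale grey, genes per 10 CpG sites) and of those with a Mof+/+ peak (dark grey). Circles mark the 9 Six-Eya genes, filled where the gene had a Mof+/+ peak and open where it had none, at heights without meaning. Six2 at 121 and Eya4 at 88 are open circles, while Eya1 at 51 is filled.

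The chromatin was cut with CviKI-1, an enzyme that recognises RGCY, where R stands for a purine and Y for a pyrimidine, and then sonicated. The summits held 12.0 to 33.9 RGCY sites per kb, beside a median of 25.9 over all Mof+/+ summits. The highest value was at Six5. How far the spacing of these sites moved the enrichment was not tested.

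SIX-family proteins bind the MEF3 site TCAGGTTTC, and TGATAC is another sequence they bind. Both were searched on both strands. TCAGGTTTC was in 0 of the 9 summit windows of 501 bp (0.648% of all Mof+/+ summit windows held it) and in 1 of the 9 start windows of 1001 bp, that of Six4 (1.24% of coding genes). TGATAC was in 1 of the 9 summit windows, at Six6 (8.34% of all), and in 0 of the 9 start windows (15.2%). A match is a run of letters and no measure of binding.

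The other genes of the network were counted by the same rule. A list of 28 partners and targets held the DACH genes and Sobp, PAX genes that act beside them, the co-repressors Ski, Skil and Tle1 to Tle4, and genes known to be bound or regulated by SIX-family proteins. Of these, 15 had a Mof+/+ peak (53.6%) and 5 a Mof+/- peak (17.9%), beside 44.5% and 1.89% of coding genes. The 5 with a Mof+/- peak were Pax3, Pax6, Ski, Skil and Sall1. Fold enrichments are not on a common scale across the lists. The median was 3.40 over all Mof+/+ peaks and 4.29 over the Mof+/- peaks, which had the stricter weakest p-value. A higher Mof+/- value below is therefore no measure of more MOF, and a lower one no measure of less. Each value is the highest on the gene in that list, and the 2 need not come from the same site. Pax3, a factor of muscle and neural crest precursors, had a highest fold enrichment of 4.65 in Mof+/+ and 4.91 in Mof+/- tissue. Pax6, the eye and islet factor, had 4.65 and 5.52. Sall1, a zinc-finger gene of the kidney, had 4.65 and 5.83. Skil, a repressor of TGF-beta signalling, had 7.30 and 4.04, and its relative Ski had 4.83 and 3.99 with 14 Mof+/+ peaks on the gene. Dach1 and Dach2 had no peak in either list, nor did Gdnf or the muscle regulators Myog, Myod1 and Myf5.

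A few other homeobox and paired-box families were counted by the same rule. Of 10 LIM homeobox genes, 7 had a Mof+/+ and 6 a Mof+/- peak. Of 9 Dlx and Msx genes, 4 had a Mof+/+ peak and 4 a Mof+/- peak, and of 9 Pax genes, 6 and 3. The Six-Eya genes had 5 and 0 of 9. The families were picked with the lists known, and the difference between them was not tested. Median CpG content at the starts was 70 for the Six-Eya genes, 76 for LIM, 74 for Dlx and Msx and 64 for Pax.

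**Figure D4:**
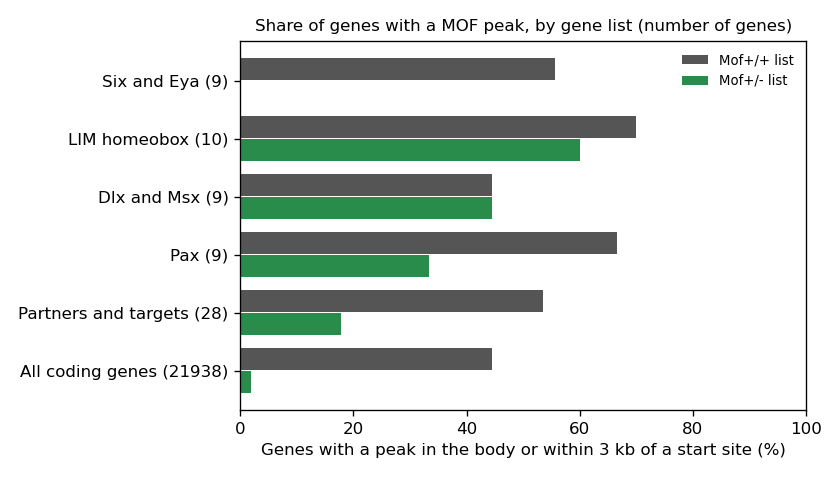
Share of genes (%) with a MOF peak in the body or within 3 kb of a start site, for Mof+/+ (grey) and Mof+/- (green), for each gene list with its number of genes in brackets. The Six-Eya genes have a grey bar at 55.6% and no green bar, while the LIM homeobox genes reach 70% and 60%.

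Marker genes of cell types were counted to check the tissue label. Of 10 adipocyte markers, 9 had a Mof+/+ peak, Lep being the exception, with highest fold enrichments from 2.65 at Pparg to 5.09 at Lipe. All 6 B cell and all 6 T cell markers had one as well, with highest fold enrichments from 2.26 at Cd3e to 7.52 at Cd79a. Of 4 mesothelial markers 1 had a peak, Wt1, and of 6 skeletal muscle markers 0. In the Mof+/- list the counts were 0 of 10, 1 of 6 (Pax5), 0 of 6, 1 of 4 (Wt1) and 0 of 6, in the same order. The shares over all coding genes were 44.5% in Mof+/+ and 1.89% in Mof+/- tissue. In whole tissue, fewer cells of a type and less MOF per cell cannot be told apart, and which cells gave the peaks at the Six-Eya genes was not tested.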

How the data were processed

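MOF ChIP-seq peaks of Mof+/+ and Mof+/- visceral adipose tissue were analysed, 1 list per genotype. One list is named as heterozygous; the other carries no genotype in its name and was taken as Mof+/+. The labels name 2 libraries per genotype, as does the study's reporting summary for littermates, whereas the design text counts 3 Mof+/- animals. According to the study's methods and the submitters' processing notes, mapping to GRCm38 was done with snakePipes and peak calling with MACS2 (version 2.1.1.20160309.3) against input at a q-value of 0.1. The deposited fold enrichment is a ratio made by the authors' caller, and the deposited −log10 p-value at each summit is from the same caller. A −log10 q-value is deposited beside it. The summit position within a peak is another deposited value, used as a coordinate. In each list 1 value column, the caller's score, was not used. The methods also describe merging within 1000 bp; the lists were used as deposited, with merging as an alternative. The H3 libraries were not analysed here.

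Genes came from GENCODE M21 and sequence from GRCm38 patch 6 (RefSeq). Fragments and background were solved from fold enrichment and p (tolerance 0.001 on −log10 p) and given exact Poisson 95% intervals for counting error. This step and the interval search were tested on simulated data. Overlap needed 1 bp. Peaks on unplaced scaffolds entered only the list totals. Python 3.11.15, numpy 2.4.6, scipy 1.17.1 and matplotlib 3.10.9 were used.

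All 9 members were named with every peak; partners were named where they had a Mof+/- peak, and Lep, Pparg, Lipe, Cd3e, Cd79a, the markers with a Mof+/- peak and the absent partners were named after their values were seen. Members and lists were chosen with earlier results of these data known. The remaining Six-family gene was not analysed here. Alternatives changed the q-value, the window, the start sites, merging and the overlap.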

Additional observations from a re-analysis of the deposited data

How the results depend on the processing

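Of the 20 alternative values of results above 0, 15 stayed within 1.5 times the main value and 5 did not. At a q-value of at most 0.001, 3 of the 9 genes kept a Mof+/+ peak (Six6, Eya1 and Eya2), with 5 peaks over 3728 bp, since fewer peaks were counted. How many of all coding genes kept one at that q-value was not computed. Within 1 kb of a start site, 4 peaks over 3518 bp remained. The 31 alternative values of the Mof+/- and overlap results were 0, the added window of 50 kb included, but stricter settings could not raise a 0. The ratio of enrichment between the lists and the search for genes with a like pattern could not be computed, because no member had peaks in both lists. No paired analysis was possible because the columns carry no replicate number, with 1 list for each genotype. With 12 to 18 fragments at a summit, no order among the 9 peaks was resolved.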
